A study of Mus musculus with 6 samples.

Results

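The genes described here encode amino acid transporters of the solute carrier families SLC1, SLC3, SLC6, SLC7, SLC36, SLC38 and SLC43. They were taken by gene symbol, as every symbol made of one of these family names, the letter a and a number, which took 53 of the 22905 genes in the count table. This choice was made with earlier results of these data known. Not every member carries amino acids: the SLC6 family also moves creatine, betaine and monoamines, and Slc43a3 is known as a carrier of purine bases.

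RNA was sequenced from mouse cells labelled as primary hepatic stellate cells, in 3 libraries labelled PBS and 3 labelled DOX. All 6 carry the genotype label BucheKI/KI-Hep and the treatment label CCl4, a liver toxin, so the groups share both. The design text gives the model as mice whose hepatocytes overexpress BUCHE, the enzyme butyrylcholinesterase in the series title. What drives the gene, the background strain, age, sex, pooling and the meaning of DOX and of the tag S2W in the titles are not stated in the labels. Nothing in the labels says that the libraries came from separate animals, so the p-values reflect only how far these libraries vary, which may be technical. All libraries share 1 genotype, so what DOX does by itself and what BUCHE does cannot be told apart here.

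Amino acid carriers differ in what drives them. SLC1, SLC6 and most plasma membrane SLC38 proteins use the sodium gradient to load the cell, while SLC7 light chains exchange one amino acid for another and reach the cell surface bound to a heavy chain, Slc3a2 or Slc3a1. Cationic carriers of the SLC7 family supply arginine to nitric oxide synthases and arginases, and some SLC36 and SLC38 proteins sit on lysosomes, where they export amino acids or take part in sensing them through the kinase complex mTORC1. In the liver, SNAT3 and SNAT4 of the SLC38 family are typical of hepatocytes, and activated macrophages take up arginine through SLC7 carriers.

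Promoter sequence is shown for 4 members that hold a match to one of 3 motifs. They were picked with the calls known, as the called members with a match and the light chain Slc7a11. They place the measured transcripts beside motifs linked to amino acid shortage, lysosomal and growth programmes, and stress. The motifs were TGATGNAA, the core of the element bound by ATF4 with C/EBP factors, CACGTG, the E-box of MYC and TFEB type factors, and TGAGTCA, the AP-1 element, each on both strands. The windows are the 250 bases before a transcript start in RefSeq (GRCm38.p6), taking of the listed starts the one nearest to the gene's outer end, 5′ to 3′ on the gene's strand, with capitals for the match.
Slc7a1, chr5:148399905-148400154, - strand: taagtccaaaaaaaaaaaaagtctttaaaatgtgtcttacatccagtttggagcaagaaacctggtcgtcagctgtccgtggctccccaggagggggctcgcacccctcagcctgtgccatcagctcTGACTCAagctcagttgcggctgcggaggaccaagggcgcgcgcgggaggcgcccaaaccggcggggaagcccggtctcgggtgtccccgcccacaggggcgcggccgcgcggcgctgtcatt
Slc36a1, chr11:55204090-55204339, + strand: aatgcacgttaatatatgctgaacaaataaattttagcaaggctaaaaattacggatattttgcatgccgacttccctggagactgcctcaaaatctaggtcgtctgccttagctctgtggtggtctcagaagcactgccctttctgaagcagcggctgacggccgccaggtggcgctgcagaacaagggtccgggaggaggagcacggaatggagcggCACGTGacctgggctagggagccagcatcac
Slc7a7, chr14:54417945-54418194, - strand: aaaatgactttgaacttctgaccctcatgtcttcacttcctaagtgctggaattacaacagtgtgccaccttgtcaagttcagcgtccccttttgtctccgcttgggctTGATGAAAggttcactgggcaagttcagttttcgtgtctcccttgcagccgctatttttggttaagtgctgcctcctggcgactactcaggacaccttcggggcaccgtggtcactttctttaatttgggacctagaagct
Slc7a11, chr3:50443614-50443863, - strand: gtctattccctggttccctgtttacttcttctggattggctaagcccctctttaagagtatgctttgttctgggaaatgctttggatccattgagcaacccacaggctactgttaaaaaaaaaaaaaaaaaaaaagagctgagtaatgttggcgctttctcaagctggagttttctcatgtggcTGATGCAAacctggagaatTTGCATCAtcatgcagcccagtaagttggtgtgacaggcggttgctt
Slc7a1 held 1 AP-1 match, Slc36a1 held 1 E-box, Slc7a7 held 1 match to TGATGNAA and Slc7a11 held 2, in opposite orientations. Of 40 members with a window, 2 held TGATGNAA, 8 held CACGTG and 5 held TGAGTCA, and over all 32851 windows the shares were 3.45%, 6.02% and 4.46%. Members were counted with 1 chosen window each, whereas the 32851 are all listed starts, so these values are not on the same basis and no excess was tested. Of these 4 genes, the transcripts of Slc7a1 and Slc36a1 were lower in DOX and those of Slc7a7 higher, while Slc7a11 did not pass the test. The called members Slc7a8, Slc1a3 and Slc1a4 were not among those with a match. Only 40 of the 53 members had a window, and whether these genes were among the 40 is not given here. The matches not shown were in members that were untested or not called. A link between match and change was not tested. A match is a string of letters and not a bound site, and other motifs were not searched.

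Total counts per library were between 36220282 and 37707364, and 1 read was worth between 0.0253 and 0.0293 CPM (the read count relative to a library size scaled by TMM factors). The overexpressed gene Bche had 0.212, 0.680 and 0.354 CPM in PBS replicates 1, 2 and 3 and 35.8, 16.4 and 99.3 CPM in DOX replicates 1, 2 and 3. Per length, the mean level over the 6 libraries of the 16 stellate cell markers ran from 0.410 FPKM (Lrat) to 249.6 FPKM (Dcn) with a median of 8.01 FPKM, that of the 16 endothelial markers from 15.7 to 617 FPKM with a median of 65.9 FPKM, and that of the 16 macrophage markers from 31.0 to 1083 FPKM with a median of 311 FPKM. FPKM is the read count per gene length and library total. Summed over 16 genes each, stellate cell markers held 944 to 2209 CPM in PBS against 1105 to 1708 CPM in DOX, and endothelial markers 7213 to 8850.3 CPM in PBS against 6243 to 7408 CPM in DOX. Macrophage markers held 5889.6, 7765 and 5155 CPM in PBS replicates 1, 2 and 3 and 16691, 9289.7 and 10734 CPM in DOX replicates 1, 2 and 3, and all 16 of them had a positive log2 ratio of DOX to PBS (the log2 fold change of the edgeR fit), 4 past the threshold. Hepatocyte markers (16 genes) held 341, 612 and 665 CPM in PBS against 1404, 594 and 4811 CPM in DOX, so that DOX replicate 3 was the highest and DOX replicate 2 lay among the PBS libraries. Of the smaller marker lists, T and NK cell genes summed to between 3.76 and 15.3 CPM in PBS against between 53.8 and 132 CPM in DOX, and neutrophil genes to between 27.2 and 58.9 CPM against 107 to 152 CPM. B cell genes (16.2 to 22.1 CPM in PBS, 17.4 to 34.1 CPM in DOX) overlapped, and bile duct genes (17.7 to 59.9 CPM in PBS, 68.6 to 108 CPM in DOX) did not. No marker on these lists that was in the table was at 0 in all libraries. In every library the macrophage sum and the endothelial sum lay above the stellate cell sum, so the transporter levels below cannot be assigned to stellate cells. In such RNA from whole preparations, fewer cells of a type and less RNA per cell cannot be told apart.

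**Figure D1:**
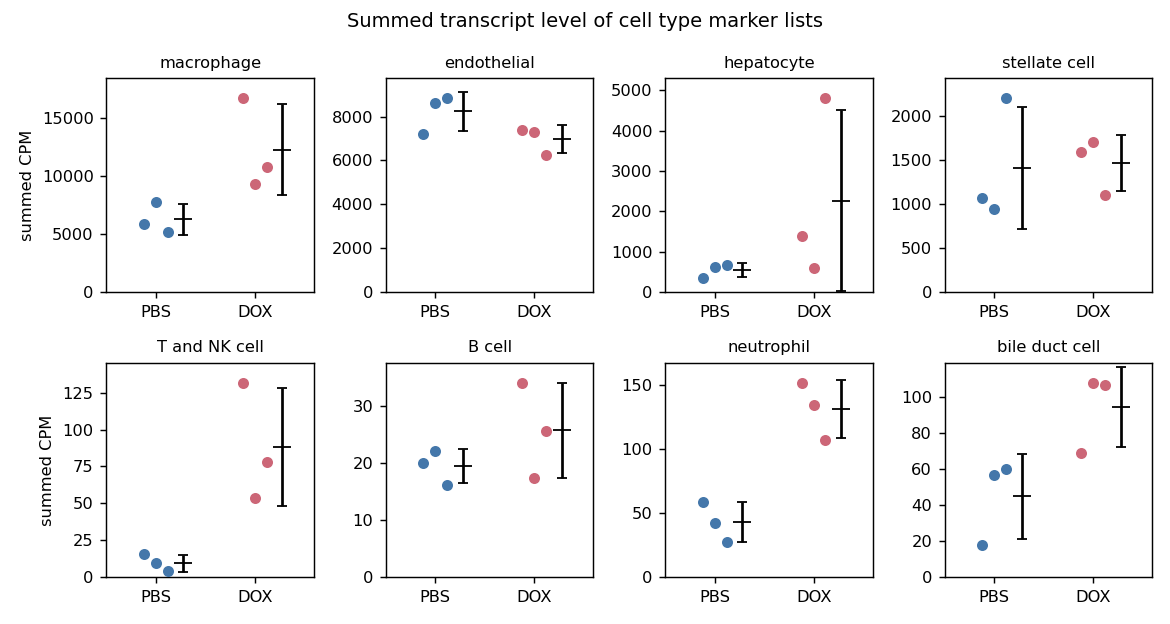
Summed CPM of each cell type marker list (y axis) in the PBS and DOX libraries (x axis), with 1 point per library and the mean with its SD. Macrophage sums reach 7765 CPM in PBS against start at 9289.7 CPM in DOX, while the stellate sums overlap.

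By edgeR's quasi-likelihood test over all genes, 3 amino acid transporter genes were higher in DOX (Slc7a8, Slc7a7 and Slc1a3) and 3 were lower (Slc7a1, Slc1a4 and Slc36a1), at an adjusted p under 0.05. These were 6 of 36 tested members (16.7%), beside 6.41% of all 14439 genes tested, with 4.38% of all genes higher and 2.04% lower; by library totals alone, 45.6% of the called genes were higher in place of 68.3%. The other 17 members had too few reads to be tested. In 13 of the 36 tested members (36.1%) every library of one group lay above every library of the other, close to the 34.6% of all genes tested. The median log2 ratio of the tested members was -0.03, and that of all genes was -0.01, with 17 members positive and 19 negative. At an unadjusted p under 0.05 stood 14 of the 36 members (38.9%), beside 28.7% of all genes. Summed over the 53 members, the level was 4522 ± 127 CPM in PBS against 4399 ± 263 CPM in DOX (SD, n = 3 each), and the groups overlapped. In FPKM, which uses library totals, the sum was 834 ± 23.1 in PBS and 733 ± 22.6 in DOX, without overlap. The counts of called members changed with single libraries left out, as did those of all genes. Without PBS replicate 2, PBS replicate 3 or DOX replicate 1, edgeR called 0 members, and 0, 0 and 85 of all genes tested. In those fits 11, 12 and 10 members had an unadjusted p under 0.05, beside 22.3%, 20.9% and 20.8% of all genes. Without PBS replicate 1 edgeR called 3 members lower (Slc1a4, Slc36a1 and Slc43a2), and without DOX replicate 2 it called 1 higher (Slc38a4). Without DOX replicate 3 it called 2 higher and 1 lower (Slc7a8, Slc1a3 and Slc36a1). The 6 called members kept their direction with each library left out. Beside the 3 lower members, summed endothelial markers overlapped between the groups, with 2 of 16 genes lower and 13 negative, and their part in these results was not tested.

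**Figure D2:**
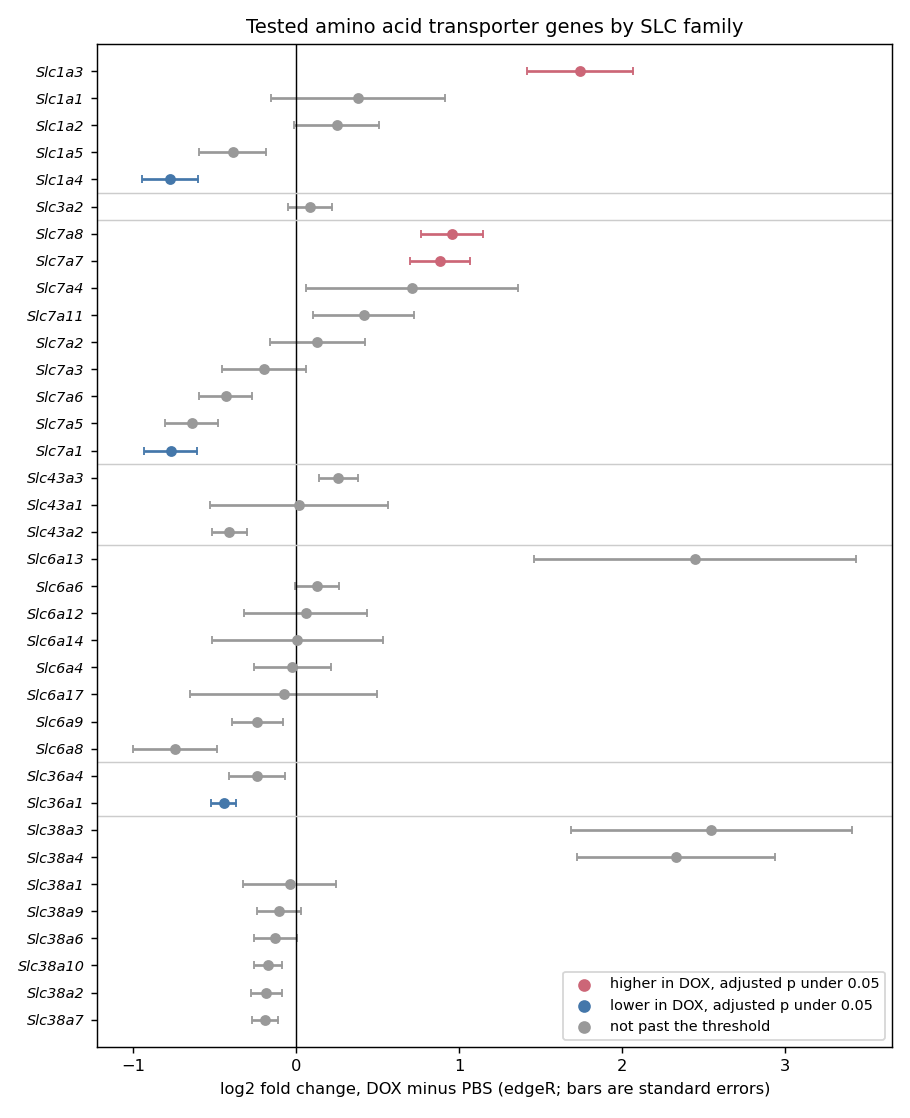
Log2 fold change (log2 ratio) of DOX against PBS (x axis) with its SE for the 36 tested members (y axis), grouped by family; colour marks the 3 members higher and the 3 lower at an adjusted p under 0.05. Wide bars belong to members of low level such as Slc6a13 and Slc38a3.

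Of 5 tested light chains of the SLC7 family 2 rose (Slc7a8 and Slc7a7) and 0 fell in edgeR and limma-voom. In DESeq2 1 also fell (Slc7a5), and 4 had an unadjusted p under 0.05 in edgeR, beside 28.7% of all genes. Over all 14439 genes edgeR called 4.38% higher and 2.04% lower, DESeq2 called 1677 genes higher and 1015 lower, and limma-voom 581 and 281. The counts of each family and list below stand beside these. Slc7a8 encodes LAT2, an exchanger of large and small neutral amino acids. It stood at 149.6, 155 and 112 CPM in PBS replicates 1, 2 and 3 and at 337, 229.7 and 242 CPM in DOX replicates 1, 2 and 3. Every DOX library lay above every PBS library, and DOX replicate 1 was the highest. Slc7a8 rose 1.94-fold, from 139 ± 23.4 to 269 ± 58.7 CPM (SD, n = 3 each; log2 ratio 0.96, SE 0.19, adjusted p = 0.0365 in edgeR). With 1 library left out its log2 ratio was between 0.77 (without DOX replicate 1) and 1.06 (without DOX replicate 2), and the call held only without DOX replicate 3 (edgeR adjusted p between 0.0432 and 0.115 over the 6 fits).

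Slc7a7 encodes y+LAT1, which exports cationic amino acids in exchange for neutral ones. Its level was 18.9, 29.4 and 19.9 CPM in the PBS libraries and 46.9, 38.6 and 40.1 CPM in the DOX libraries. The groups did not overlap, and PBS replicate 2 was the nearest to the DOX libraries. It rose 1.84-fold (log2 ratio 0.88, SE 0.19, adjusted p = 0.0422 in edgeR), which lost its call with each library left out (log2 ratio 0.76 without PBS replicate 1 to 1.11 without PBS replicate 2, edgeR adjusted p between 0.0562 and 0.138). An exon of Slc7a7 overlaps Oxa1l on the other strand, and whether counting used the strand was not stated; Oxa1l had 38.3 CPM in PBS against 36.4 CPM in DOX (adjusted p = 0.706 in edgeR). The orders of the 3 DOX libraries in Slc7a8 and in the macrophage sum were the same, with replicate 1 highest, then 3, then 2, as they were in Slc7a7. In PBS, replicate 2 was the highest in Slc7a8, in Slc7a7 and in that sum. The part of macrophage RNA in these 2 results was not tested.

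Slc7a5 encodes LAT1, the carrier of leucine and other large neutral amino acids that feeds mTORC1. It stood at 151, 128 and 172 CPM in PBS against 77.3, 105 and 107 CPM in DOX. All DOX libraries lay below all PBS libraries, with DOX replicate 1 the lowest, yet the gene missed the threshold (log2 ratio -0.64, SE 0.16, adjusted p = 0.0605 in edgeR) and was past it in DESeq2 (adjusted p = 0.00818) and by library totals alone (adjusted p = 0.0432 in edgeR). Slc7a6 encodes y+LAT2, the widely expressed relative of y+LAT1. It had 40.4, 42.1 and 47.8 CPM in PBS against 25.3, 32.5 and 38.7 CPM in DOX, also without overlap (log2 ratio -0.43, SE 0.16, adjusted p = 0.137 in edgeR). Slc7a11 encodes xCT, which imports cystine for glutathione synthesis in exchange for glutamate. It had 91.9, 50.3 and 48.0 CPM in PBS against 57.3, 99.1 and 96.7 CPM in DOX. The groups overlapped, since PBS replicate 1 was close to the upper DOX libraries and DOX replicate 1 close to the lower PBS ones (log2 ratio 0.41, SE 0.31, adjusted p = 0.419 in edgeR).

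The heavy chain gene Slc3a2 itself, which encodes the CD98 heavy chain, had 773, 722 and 812 CPM in PBS against 826, 928 and 689.8 CPM in DOX. The groups overlapped and the difference was small beside its error (log2 ratio 0.08, SE 0.13, adjusted p = 0.721 in edgeR); it turned to -0.05 by library totals alone and to -0.02 without DOX replicate 2. Set per length in FPKM, the 5 light chains together amounted to 0.943 ± 0.0396 of Slc3a2 in PBS and 1.001 ± 0.166 in DOX, with overlap. The shares of single chains did not overlap between the groups except for Slc7a11. They restate the levels of the same genes and are not separate support. Slc7a5 made up 53.3%, 49.5% and 62.8% of the summed light chain FPKM in PBS and 25.2%, 35.6% and 35.2% in DOX. Slc7a8 made up 23.8%, 27.0% and 18.4% in PBS and 49.6%, 35.2% and 35.8% in DOX. In the PBS libraries Slc7a5 was thus the leading light chain in each, whereas in DOX replicate 1 Slc7a8 led and in DOX replicates 2 and 3 these chains were nearly level.

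**Figure D3:**
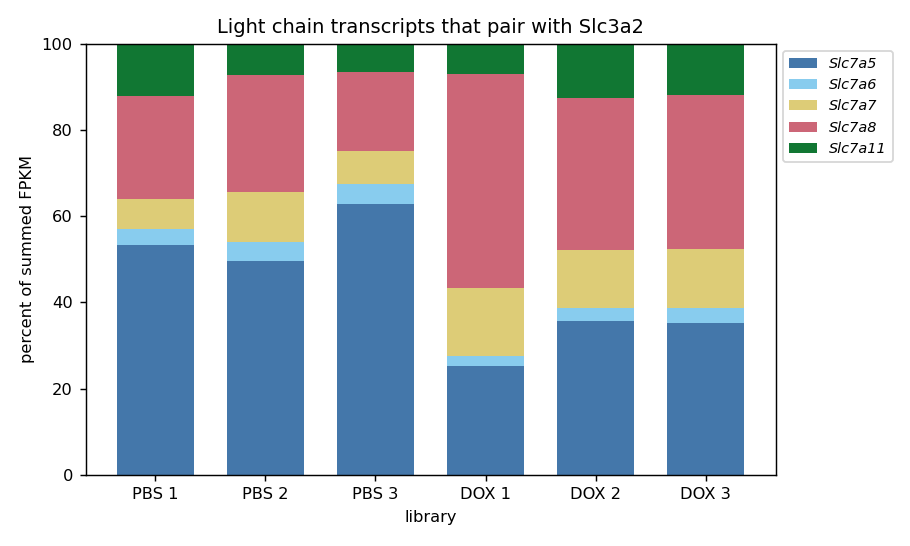
Share of each light chain gene in the summed FPKM of the 5 light chains (y axis, percent) in each library (x axis). Slc7a5 holds 49.5% to 62.8% in PBS and 25.2% to 35.6% in DOX.

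As a ratio per length, Slc7a8 stood to Slc7a5 as 0.447, 0.546 and 0.293 in PBS and as 1.97, 0.989 and 1.02 in DOX. Slc7a7 stood to Slc7a6 as 1.78, 2.65 and 1.59 in PBS and as 7.06, 4.52 and 3.94 in DOX. The groups did not overlap in either ratio. This was fixed beforehand, since Slc7a8 and Slc7a7 lay higher in DOX without overlap and Slc7a5 and Slc7a6 lower without overlap. The third ratio computed, that of the cationic carriers Slc7a2 and Slc7a1, was 0.830, 0.474 and 0.792 in PBS and 1.52, 1.43 and 1.08 in DOX. Each of the 3 ratios had a two-sided exact permutation p of 0.1 (0.1 after adjustment over the 3), the smallest that 3 against 3 libraries allow. For Slc7a8 to Slc7a5 and for Slc7a7 to Slc7a6 this p followed from the levels of the single genes and adds no support.

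Of the cationic carriers, Slc7a1 fell in DOX and Slc7a2 did not pass the test. Slc7a1 encodes CAT1, the general importer of arginine, lysine and ornithine. Its level was 279, 242 and 306 CPM in PBS against 128, 188 and 169 CPM in DOX. All DOX libraries lay below all PBS libraries, and DOX replicate 1 was the lowest. It was 1.71-fold lower (log2 ratio -0.77, SE 0.16, adjusted p = 0.0415 in edgeR). The call was lost with each library left out, with a log2 ratio from -0.63 (without DOX replicate 1) to -0.89 (without DOX replicate 2) and edgeR adjusted p between 0.0528 and 0.134. Slc7a2 encodes CAT2, an arginine carrier of liver and of activated macrophages. It had 284, 141 and 298 CPM in PBS against 239, 329 and 223 CPM in DOX. The groups overlapped, with PBS replicate 2 low among its group (log2 ratio 0.13, SE 0.29, adjusted p = 0.809 in edgeR); without that library the value was -0.14, and without DOX replicate 2 it was -0.06. Slc7a3, a further arginine carrier, had 3.08 to 5.25 CPM over the 6 libraries and Slc7a4, whose substrate is not established, 0.0530 to 0.585 CPM, and neither passed.

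In the SLC1 family, Slc1a3 rose from a low level and Slc1a4 fell. Slc1a3 encodes the glutamate importer GLAST, known best from astrocytes. It had 17, 19 and 23 reads in PBS and 72, 64 and 45 reads in DOX, or 0.451, 0.497 and 0.581 CPM against 2.11, 1.80 and 1.23 CPM. Every DOX library was above every PBS library, and DOX replicate 3 was the lowest of its group. The gene rose 3.34-fold (log2 ratio 1.74, SE 0.33, adjusted p = 0.0334 in edgeR), and the call held only without DOX replicate 3 (0.0286 to 0.110 as the edgeR adjusted p over the 6 fits). On the scale of log2(FPKM + 1) the difference was 0.20 and the call was lost (limma adjusted p = 0.0517), and the gene lay under 1 FPKM in all libraries. Within DOX the order was not that of the macrophage sum, which was lowest in replicate 2. The part of the higher macrophage sum in DOX in this result was not tested.

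Slc1a4 encodes ASCT1, an exchanger of alanine, serine, cysteine and threonine. It had 36.9, 41.0 and 55.9 CPM in PBS against 22.8, 27.6 and 27.8 CPM in DOX. The groups did not overlap, and PBS replicate 3 was the highest library. The gene was 1.71-fold lower (log2 ratio -0.77, SE 0.17, adjusted p = 0.0479 in edgeR), with values from -0.58 (without PBS replicate 3) to -0.90 (without PBS replicate 1). The call held only without PBS replicate 1, and the edgeR adjusted p lay between 0.0420 and 0.152. Its relative Slc1a5 encodes ASCT2, a glutamine carrier of growing cells. It had 64.0, 56.2 and 70.7 CPM in PBS against 33.5, 54.9 and 57.3 CPM in DOX. DOX replicate 3 lay above PBS replicate 2, so the groups overlapped, and DOX replicate 1 was the lowest (log2 ratio -0.39, SE 0.21, adjusted p = 0.261 in edgeR; -0.18 without DOX replicate 1). The glutamate carriers Slc1a1 (1.17 to 4.59 CPM over all libraries) and Slc1a2 (1.18 to 1.81 CPM) overlapped between the groups.

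**Figure D4:**
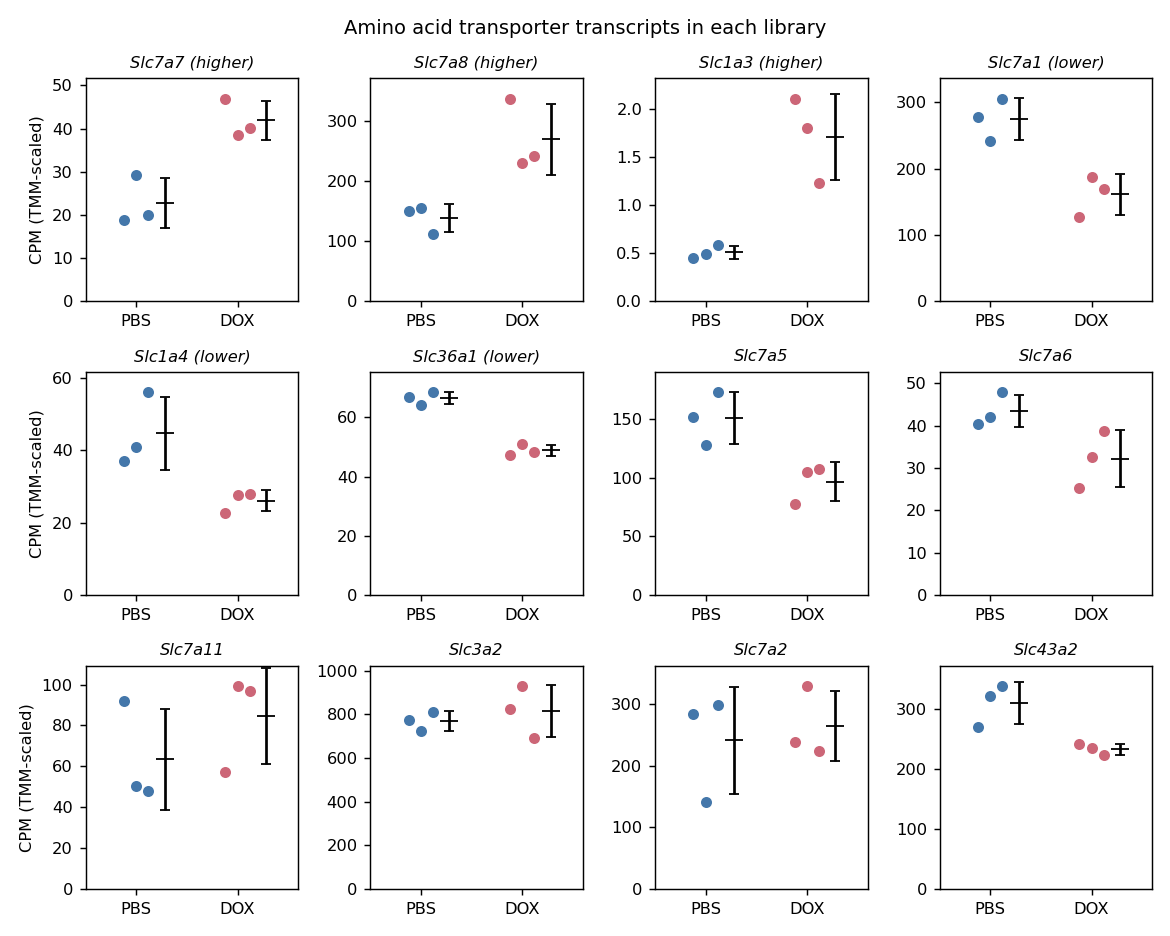
CPM (y axis) of 12 transporter genes in the PBS and DOX libraries (x axis), with 1 point per library and the mean with its SD; the words higher and lower mark genes past the edgeR threshold. Slc36a1 shows narrow groups, at 64.2 to 68.3 CPM in PBS against 47.4 to 50.8 CPM in DOX.

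Of the lysosomal transporters Slc36a1 fell, by less than the other called members. Slc36a1 encodes PAT1, a proton-coupled exporter of small amino acids from lysosomes. It had 66.7, 64.2 and 68.3 CPM in PBS against 47.4, 50.8 and 48.3 CPM in DOX. Both groups were tight and far apart for their spread, though the change was 1.36-fold (log2 ratio -0.44, SE 0.08, adjusted p = 0.0291 in edgeR). The call held without PBS replicate 1 (adjusted p = 0.0499 in edgeR) and DOX replicate 3 (0.0431) and was lost without the other 4 libraries (up to 0.110). Slc38a7 encodes a lysosomal exporter of glutamine. It had 169, 161 and 151 CPM in PBS against 142, 139.6 and 139.6 CPM in DOX, with no overlap and a log2 ratio of -0.19 (SE 0.08, adjusted p = 0.166 in edgeR). Slc38a9, the lysosomal arginine sensor, had 14.1 to 16.1 CPM in PBS against 12.0 to 15.01 CPM in DOX, which overlapped. The tryptophan and proline carrier Slc36a4 overlapped as well, at 49.8 to 73.0 CPM in PBS against 44.7 to 60.9 CPM in DOX.

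Of the 8 tested SLC38 genes edgeR and limma-voom called 0, DESeq2 called 2 (Slc38a3 and Slc38a4, higher), and 3 had an unadjusted p under 0.05. Slc38a2 encodes SNAT2, the carrier of neutral amino acids that cells induce when starved of them. It was the most abundant member per length, and had 687, 729.7 and 748 CPM in PBS against 650.3, 660.0 and 598 CPM in DOX. The groups did not overlap but lay near each other (log2 ratio -0.18, SE 0.10, adjusted p = 0.262 in edgeR). Slc38a1, Slc38a6 and Slc38a10 had means of 51.0, 21.0 and 164 CPM in PBS against 49.5, 19.2 and 145 CPM in DOX, and the groups overlapped in Slc38a1 and Slc38a6.

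Slc38a3 and Slc38a4 encode the glutamine carrier SNAT3 and the system A carrier SNAT4, both typical of hepatocytes. Slc38a3 had 0.451, 0.811 and 0.808 CPM in PBS against 2.58, 0.676 and 8.90 CPM in DOX. DOX replicate 2 lay among the PBS libraries and DOX replicate 3 far above the others (log2 ratio 2.55, SE 0.86, adjusted p = 0.111 in edgeR, and 1.23 without DOX replicate 3). Slc38a4 had 0.822, 2.59 and 1.79 CPM in PBS against 11.8, 2.99 and 11.4 CPM in DOX. The groups did not overlap, but DOX replicate 2 was close to PBS (log2 ratio 2.33, SE 0.61, adjusted p = 0.0658 in edgeR, and 0.0452 without DOX replicate 2). Slc6a13, a carrier of taurine and GABA in mouse hepatocytes, had 0.292, 0.340 and 0.152 CPM in PBS against 0.936, 0.141 and 3.22 CPM in DOX (log2 ratio 2.45, SE 0.99, adjusted p = 0.159 in edgeR, and 1.03 without DOX replicate 3). In DOX replicates 1, 2 and 3 the hepatocyte marker sum was 1404, 594 and 4811 CPM, and it was highest in replicate 3 and lowest in replicate 2, as were Slc38a3 and Slc6a13, while Slc38a4 was lowest in replicate 2. Slc38a4 was highest in DOX replicate 1. In PBS the hepatocyte sum was 341, 612 and 665 CPM, highest in replicate 3, where Slc6a13 was lowest. Slc38a3 and Slc38a4 were lowest in PBS replicate 1, as was that sum, but highest in PBS replicate 2. The part of hepatocyte RNA in these 3 genes was not tested.

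Of 8 tested SLC6 genes edgeR and limma-voom called 0, DESeq2 called 1 (Slc6a8, lower), and 2 had an unadjusted p under 0.05. Slc6a6, the taurine importer, was the most abundant of them per length, and had 521, 542 and 448 CPM in PBS against 635, 501 and 512 CPM in DOX. The groups overlapped (log2 ratio 0.13, SE 0.13, adjusted p = 0.577 in edgeR), and the sign turned by library totals alone. Slc6a8 encodes the creatine importer. It had 177, 90.5 and 113 CPM in PBS against 63.7, 71.5 and 92.1 CPM in DOX, so DOX replicate 3 passed PBS replicate 2, and PBS replicate 1 stood apart from its group (log2 ratio -0.74, SE 0.26, adjusted p = 0.117 in edgeR, and -0.43 without PBS replicate 1). The glycine carrier Slc6a9 and the serotonin carrier Slc6a4 had means of 49.3 and 19.2 CPM in PBS against 41.7 and 18.9 CPM in DOX, and Slc6a12, which carries betaine and GABA, 3.24 and 3.37 CPM. Slc6a14 and Slc6a17 were at 0.270 and 0.335 CPM in PBS. The groups overlapped in these 5 genes.

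In the SLC43 family, whose system L members work without a heavy chain, edgeR and limma-voom called 0 of 3 genes, DESeq2 called 1, and 1 had an unadjusted p under 0.05. Slc43a2 encodes LAT4, an exporter of branched-chain and other large neutral amino acids. It had 269.8, 321 and 337 CPM in PBS against 240.3, 234 and 222 CPM in DOX. No library overlapped, and the DOX libraries were the tighter group (log2 ratio -0.41, SE 0.11, adjusted p = 0.0658 in edgeR; DESeq2 adjusted p = 0.0123; adjusted p = 0.0420 in edgeR without PBS replicate 1). Slc43a3 had 446, 413 and 405 CPM in PBS against 526, 556 and 429 CPM in DOX, which overlapped (log2 ratio 0.26, SE 0.12, adjusted p = 0.214 in edgeR). Slc43a1, which encodes LAT3, had 0.504 to 2.22 CPM over the 6 libraries, also with overlap.

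Compared per length, the level of the 53 members spanned several orders of magnitude, and 6 genes held 63.4% to 68.3% of their summed FPKM in each library. The FPKM values are scaled by library total, so they are not adjusted by the TMM factors behind the CPM values. Slc38a2 led with 162 ± 9.92 FPKM in PBS and 130.3 ± 2.53 FPKM in DOX (SD, n = 3 each), followed by Slc43a3 with 130.5 ± 4.15 and 143 ± 13.6 FPKM. In PBS each library of Slc38a2 lay above each of Slc43a3, while in DOX they overlapped. Slc3a2 followed with 86.0 ± 5.28 FPKM in PBS and 83.3 ± 9.69 in DOX, then Slc6a6 with 67.4 ± 6.40 and 67.3 ± 7.41, which was below it in each library. Slc38a7 with 46.9 ± 1.98 FPKM in PBS and Slc7a5 with 44.8 ± 6.71 did not differ beyond their spread. In DOX Slc38a7 had 37.7 ± 1.57 FPKM, above all libraries of Slc7a5 at 26.4 ± 5.46. Slc7a8 had 18.6 ± 3.04 FPKM in PBS, below each PBS library of Slc7a1 at 39.0 ± 4.58, and in DOX it had 33.0 ± 6.24, above each DOX library of Slc7a1 at 21.0 ± 4.36.

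**Figure D5:**
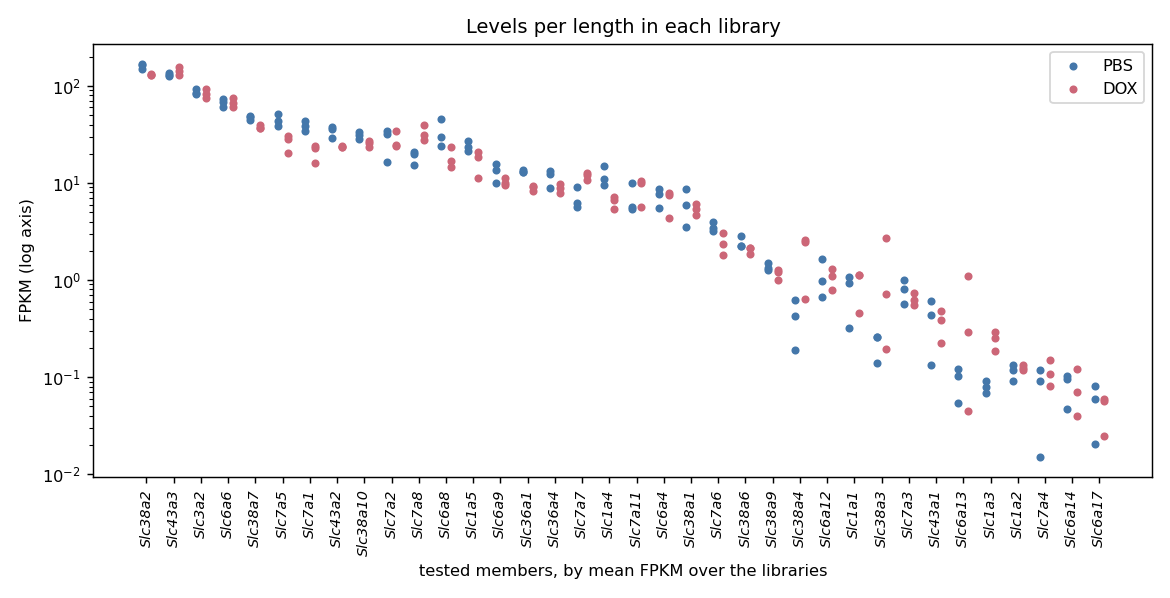
FPKM on a log axis (y axis) of the 36 tested members (x axis, ordered by mean), with 1 point per library. Slc38a2 and Slc43a3 lead, and Slc38a4, Slc38a3 and Slc6a13 show DOX libraries that stand apart from each other.

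Few reads were found for the untested members. Over all 6 libraries the glutamate carrier Slc1a7 had 43 reads, the heavy chain of the kidney and gut Slc3a1 had 31 and the neutral carrier Slc6a19 had 25. Slc36a2 and Slc36a3 had 9 reads each, and Slc38a8 had 5. Slc1a6, Slc6a5, Slc6a7, Slc6a11, Slc6a16, Slc7a10, Slc7a14, Slc7a15, Slc38a5 and Slc38a11 had between 1 and 3. At this depth these genes were too low to be tested, with at most 14 reads in any library (Slc1a7 in DOX replicate 2). Of the 36 tested members 32 reached the filter's level of 0.27 CPM in every library, and Slc7a4 did so in all 3 DOX libraries and in PBS replicates 2 and 3.

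Of genes that respond to amino acid shortage through the kinase GCN2 and the factor ATF4, 17 of 22 tested had a negative log2 ratio. Of these 22 edgeR called 0 higher and 2 lower, beside 4.38% and 2.04% of all genes. DESeq2 called 1 higher and 9 lower, beside 1677 and 1015 of all 14439 genes. By limma-voom 1 was lower, beside 281 of all genes. At an unadjusted p under 0.05 stood 12 (28.7% of all genes did), and the median log2 ratio was -0.38, beside -0.01 over all genes. Eif4ebp1, the translation repressor gene that mTORC1 acts on and ATF4 induces, fell from 214, 206 and 199 CPM in PBS to 117, 139 and 146 CPM in DOX (log2 ratio -0.62, SE 0.10, adjusted p = 0.0286 in edgeR). Aldh18a1, of proline synthesis, fell from 84.6 ± 6.11 to 59.9 ± 7.33 CPM (log2 ratio -0.50, SE 0.11, adjusted p = 0.0484 in edgeR). The leucine sensor gene Sesn2 and the folate enzyme gene Mthfd2 had log2 ratios of -0.45 and -0.42 (adjusted p = 0.0704 in edgeR and 0.0810), with no overlap between the groups. With 1 library left out the edgeR adjusted p was between 0.0286 and 0.0930 for Eif4ebp1, lost without either of PBS replicates 2 and 3 and DOX replicates 1 and 2, and between 0.0534 and 0.151 for Aldh18a1.

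Of 33 tested genes of amino acid sensing by mTORC1, edgeR called 0 higher and 2 lower, DESeq2 0 and 5 and limma-voom 0 and 2. Beside these, edgeR called 4.38% of all genes higher and 2.04% lower, and DESeq2 1677 and 1015 of 14439. Among the 33, 6 had an unadjusted p under 0.05, a smaller share than the 28.7% of all genes. The median log2 ratio was -0.05. Rptor, the substrate-binding subunit of mTORC1, fell from 76.1 ± 5.24 to 52.9 ± 4.32 CPM (log2 ratio -0.53, SE 0.10, adjusted p = 0.0328 in edgeR). Tsc1, a subunit of the complex that restrains mTORC1, fell from 50.6 ± 3.25 to 37.0 ± 2.96 CPM (log2 ratio -0.45, SE 0.10, adjusted p = 0.0450 in edgeR). Its partner Tsc2 and the folliculin gene Flcn had log2 ratios of -0.30 and -0.32 (adjusted p = 0.0625 in edgeR and 0.0528). With 1 library left out the edgeR adjusted p was between 0.0443 and 0.0980 for Rptor, held without DOX replicate 3, and between 0.0623 and 0.128 for Tsc1.

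Of 20 tested enzyme genes of arginine, glutamine and proline use, 4 were higher (Arg1, Arg2, Nos2 and, named after its values were seen, Sat1) and 1 was lower (Nos3) (background 4.38% and 2.04%), with a median log2 ratio of 0.31. Arg1, which splits arginine into ornithine and urea, had 3.50, 1.96 and 2.15 CPM in PBS against 75.6, 26.2 and 27.6 CPM in DOX (log2 ratio 4.09, SE 0.51, adjusted p = 0.0206 in edgeR). Its mitochondrial relative Arg2 rose from 17.9 ± 2.55 to 33.5 ± 4.06 CPM (log2 ratio 0.90, adjusted p = 0.0277 in edgeR). Nos2, the inducible nitric oxide synthase, had 39.7, 22.8 and 26.5 CPM in PBS against 119, 123 and 48.2 CPM in DOX (log2 ratio 1.70, adjusted p = 0.0467 in edgeR). Nos3, the endothelial synthase, fell from 102 ± 2.67 to 44.9 ± 5.07 CPM (log2 ratio -1.19, SE 0.10, adjusted p = 0.0164 in edgeR). All 4 of these calls were lost without PBS replicate 2 or PBS replicate 3, those of Arg2 and Nos2 also without DOX replicate 1 or 2, and that of Nos2 without PBS replicate 1, with edgeR adjusted p of up to 0.0845 for Arg1, 0.0889 for Arg2, 0.149 for Nos2 and 0.0663 for Nos3. In the same libraries Slc7a1, the carrier that supplies arginine, was lower and Slc7a2 overlapped between the groups. Arg1 is made by hepatocytes and by macrophages, whose marker sums also differed, and their part in its value was not tested.

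Of 17 tested genes of cystine use and glutathione, edgeR called 1 higher and 0 lower, beside 4.38% and 2.04% of all genes. DESeq2 called 2 and 0, beside 1677 and 1015 of all 14439 genes. Of the 17, 5 had an unadjusted p under 0.05, a share near the 28.7% of all genes. Gsr, which reduces oxidised glutathione, rose from 154 ± 9.20 to 249 ± 21.6 CPM (log2 ratio 0.70, SE 0.10, adjusted p = 0.0240 in edgeR; 0.0746, 0.0871 and 0.0594 without PBS replicates 2 and 3 and DOX replicate 1). Gclc, the first enzyme of glutathione synthesis, had a log2 ratio of -0.25 (adjusted p = 0.131 in edgeR), Gpx1, a peroxidase, 0.71 (0.115) and Keap1, the sensor that restrains NRF2, 0.27 (0.141).

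Of 14 tested genes of tryptophan and branched-chain amino acid breakdown 3 were higher and 0 lower by edgeR, 7 and 0 by DESeq2 and 2 and 0 by limma-voom. All genes gave 4.38% higher and 2.04% lower by edgeR, and 1677 and 1015 of 14439 by DESeq2. Among the 14, 9 had an unadjusted p under 0.05, beside 28.7% of all genes. Ido1, which opens the tryptophan ring, had 0, 0.0523 and 0.0253 CPM in PBS against 2.40, 0.901 and 0.409 CPM in DOX (adjusted p = 0.0332 in edgeR). Kmo, of the same kynurenine pathway, rose from 0.898 ± 0.413 to 4.43 ± 0.953 CPM (log2 ratio 2.30, SE 0.40, adjusted p = 0.0299 in edgeR), and Haao had a mean of 0.0956 CPM in PBS against 1.32, 0.310 and 3.27 CPM in DOX (adjusted p = 0.0480 in edgeR). In PBS Ido1 and Haao had few reads, and they passed the low-count filter through their DOX libraries, where they are high. Their calls are therefore weak support for the counts of this list. With the filter of 1 CPM in 3 libraries both were untested, and edgeR called 1 gene of the list higher. Afmid, of the same pathway, had a log2 ratio of 1.08 (adjusted p = 0.0658 in edgeR). Haao had the same order of the DOX libraries as the hepatocyte marker sum, with replicate 3 highest and replicate 2 lowest, and all 16 hepatocyte and all 16 macrophage markers had a positive log2 ratio; their part in these results was not tested. Over the 6 fits with 1 library left out, the edgeR adjusted p reached 0.118 for Ido1, 0.0925 for Kmo and 0.151 for Haao. The calls of all 3 were lost without PBS replicate 2, PBS replicate 3 or DOX replicate 1, those of Ido1 and Kmo also without DOX replicate 2, those of Ido1 and Haao also without PBS replicate 1, and that of Haao without DOX replicate 3.

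Amino acid and related transporters of other SLC families gave 3 higher and 0 lower of 19 tested genes by edgeR and limma-voom, and 4 higher and 2 lower by DESeq2. The background was 4.38% higher and 2.04% lower by edgeR, and 1677 and 1015 of 14439 genes by DESeq2. Of the 19, 6 had an unadjusted p under 0.05, beside 28.7% of all genes, and the median log2 ratio was -0.07. Slc15a3, a lysosomal carrier of histidine and small peptides in myeloid cells, had 435, 414 and 333 CPM in PBS against 939, 835 and 605 CPM in DOX (log2 ratio 1.01, SE 0.19, adjusted p = 0.0334 in edgeR). Slc25a12, the mitochondrial exchanger of aspartate and glutamate, rose from 18.4 ± 1.27 to 32.9 ± 4.95 CPM (log2 ratio 0.83, SE 0.14, adjusted p = 0.0277 in edgeR). The choline carrier Slc44a1 also rose (log2 ratio 0.47, adjusted p = 0.0417 in edgeR; 0.0624 by library totals alone), and the mitochondrial carrier of basic amino acids Slc25a29 had a log2 ratio of -1.39 (adjusted p = 0.0546 in edgeR). The calls of Slc15a3 and Slc25a12 were lost without PBS replicate 2 or 3 or DOX replicate 1 or 2, and that of Slc44a1 also without PBS replicate 1, with edgeR adjusted p of up to 0.116, 0.0987 and 0.144.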

How the data were processed

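Per the labels' protocols, total RNA (Rneasy) went into SMARTER mRNA-Seq libraries. The authors deposited raw read counts for 22905 gene symbols and FPKM values for the same genes, 1 column per library. All nonzero FPKM values equalled the count per library total and fixed gene length within a relative tolerance of 0.001. The submitters' processing notes name the builds GRCm38, mm10 and hg38 without saying what each was for. Aligner, counter, strand use and multi-mapping: not given in the sources used here.

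Counts were tested with edgeR 4.0.16 (R 4.3.3): TMM factors, filterByExpr (minimum count 10, minimum total 15), glmQLFit and glmQLFTest with group as the only term, two-sided, Benjamini-Hochberg over all 14439 genes tested, threshold 0.05. The SE came from the F statistic, and values after ± are SDs of 3 libraries. CPM uses TMM-scaled library sizes, and 3 reads, the limit that a count of 0 allows, are 0.0758 to 0.0878 CPM, for counting error only. Replicates of a group differed by 38.6 to 82.1 chi-square per degree of freedom, so none was counted as a repeat. Groups and replicate numbers come from sample titles.

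Members follow from their symbols; 1 untested member is not reported here. The members, gene lists and marker lists were chosen with earlier results of these data known. Given with values in each library are members past the threshold, the 6 with the highest mean FPKM and 10 carriers and partners listed by role; members at an unadjusted p under 0.05 were added after their values were seen, and from each related list the 4 genes of lowest p are named. Promoters come from RefSeq (40 of 53 members matched) and exon overlap from GENCODE M21.

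The code was tested on simulated data, drawn with the gene-wise variation that edgeR estimated here. With 200 of 14439 genes changed, 7.58% of the calls of edgeR, 27.5% of those of DESeq2 and 5.79% of those of limma-voom were false. These shares are from 1 draw at that fraction of changed genes and do not carry over to the calls made here. Of the 200 changed genes edgeR called 48 set at a log2 change of 1 and 74 set at 2, so real changes can go uncalled. With no gene changed, they called 1, 24 and 1 genes, so calls made by DESeq2 only are less certain. There were 16 alternatives: RLE, upper-quartile and no factors, no low-count filter, 1 CPM in 3 libraries, DESeq2 1.42.0, limma-voom (limma 3.58.1), limma on log2(FPKM + 1) and log2(FPKM + 0.1), the replicate number as a block, and each library left out.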

Additional observations from a re-analysis of the deposited data

How the results depend on the processing

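Members called higher (3) and lower (3) became 5 and 6 in DESeq2. They became 1 and 1 with the replicate number as a block, 1 and 3 by limma on log2(FPKM + 1), and 2 and 5 by library totals alone. With 1 library left out they ranged from 0 to 2 higher and from 0 to 3 lower. Over all genes, 632 higher and 294 lower became 1677 and 1015 in DESeq2, 611 and 730 by library totals alone (45.6% of calls higher against 68.3%; median log2 ratio over all genes -0.14), 494 and 464 by limma on log2(FPKM + 0.1), 622 and 159 with the block, and 0 to 722 higher and 0 to 368 lower with 1 library left out; edgeR called 0 genes without PBS replicate 2 or 3 (3294 and 3092 at an unadjusted p under 0.05). By limma on log2(FPKM + 1) 51.3% of calls were higher. All 6 called members were also called with RLE and upper-quartile factors, without the low-count filter, with the 1 CPM filter and in DESeq2. Slc1a4 was lost in limma-voom (adjusted p = 0.0545) and on log2(FPKM + 1) (0.0539), Slc1a3 on log2(FPKM + 1) (0.0517), and Slc7a7 by library totals alone (edgeR adjusted p = 0.0511) and on both FPKM scales. Of 21 members followed across the settings, the 3 that changed sign, all uncalled, were Slc3a2, Slc6a6 and Slc7a2. Among the 21, Slc38a3 and Slc6a13 were not tested with the filter of 1 CPM in 3 libraries. Slc3a2 had -0.047 by library totals alone, -0.051 on log2(FPKM + 1) and -0.052 on log2(FPKM + 0.1), and from -0.021 to 0.19 with 1 library left out. Slc6a6 had -0.0032, -0.0046 and -0.0047 in the same order of settings. Slc7a2 had from -0.14 to 0.31 with 1 library left out. The cause of these shifts was not tested.

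Whether the replicate numbers pair the libraries could not be decided with 3 libraries per group. Deviations of same-numbered libraries from their group means correlated at 0.0949, -0.106 and 0.232 for replicates 1, 2 and 3. Between libraries of unlike number the values ran from -0.23 to 0.14, so that of replicate 3 was the highest of all. With the block edgeR called only Slc1a4 and Slc7a8 among the members. Members under about 0.27 CPM were limited by depth.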
